A study of Mus musculus with 4 samples.

Results

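Promoters of long noncoding RNAs (lncRNAs) were examined for chromatin accessibility in mouse embryo fibroblasts after deletion of Ash2l, which KMT2 enzymes need in order to methylate lysine 4 of histone H3. The assay was ATAC-seq: a transposase inserts tags where DNA is open, so that more reads at a site mean a more open site. Of 119609 intervals with read counts, 495 were lncRNA promoter sites. Their centre lay within 1000 bp of the transcription start site (TSS) of a lincRNA or antisense gene and over 3000 bp from any protein-coding TSS, on chromosomes 1 to 19 of the mm9 genome with the GENCODE vM1 annotation. This annotation has 1273 lincRNA genes but 0 genes of the type antisense, so processed-transcript genes with an antisense transcript (1354 genes) were taken as antisense. The rule gave 282 sites at 265 lincRNA genes and 213 sites at 205 antisense genes. All 495 sites passed the filter on low counts.

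The 4 libraries of 1 immortalized cell line were compared. All cells were Ash2l fl/fl and Cre-ER, meaning that both Ash2l copies carry loxP sites around exon 4 and that the recombinase acts only when its ligand is given. The line had been immortalized by a hairpin RNA against p19Arf. The +HOT cells (2 libraries) received 5 nM 4-hydroxytamoxifen for 7 days and the -HOT cells (2 libraries) received the ethanol vehicle. The replicates are labelled technical, so p-values measure the spread between libraries of 1 line, not between cultures or animals. No drug-treated cells with intact Ash2l were analysed here, so effects of the drug and of the active recombinase cannot be told apart from those of Ash2l loss. 1 of the -HOT libraries had fewer additional PCR cycles than the other 3 libraries.

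The 4 libraries held 21356440 to 37151163 reads in intervals, and the median lncRNA promoter site had 171 to 325 reads per library. Replicates correlated at 0.976 in +HOT and 0.984 in -HOT over the log CPM of all intervals, against 0.918 to 0.923 between conditions. Promoter sites were present at 14 of 14 fibroblast marker genes (median 34.9 CPM for the strongest site of each gene) and at 0 of 5 blood markers. They were also present at 3 of 5 epithelial markers (median 2.60 CPM), 3 of 4 endothelial markers (9.05 CPM) and 3 of 4 neural markers (4.97 CPM).

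LncRNAs are transcripts that do not encode a protein. Most are transcribed by RNA polymerase II from promoters resembling those of protein-coding genes, with trimethylated histone H3 lysine 4 at active starts, and some are hosts from which microRNAs or small nucleolar RNAs (snoRNAs) are processed. LincRNA genes are defined as lying between protein-coding genes, and antisense genes as transcribed from the strand opposite to another gene. The annotated classes were not cleanly split in this way. Of the 282 lincRNA sites 59, and of the 213 antisense sites 125, were centred inside a protein-coding gene. CpG-rich promoters, where cytosine followed by guanine is not depleted, are typical of broadly used genes.

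The DNA of 6 sites is shown to illustrate how lncRNA promoters differ. They are the 2 largest named falls, the largest named fall at a CpG-rich site, the 2 largest named rises and the strongest site. The CpG-rich fall was added after its values were seen. Each sequence is the 300 bp around the centre of the site in mm9, read 5′ to 3′ on the strand of the lncRNA gene, with every CG dinucleotide in capitals.
Gm16684 (chr17:32946514-32946813, plus strand): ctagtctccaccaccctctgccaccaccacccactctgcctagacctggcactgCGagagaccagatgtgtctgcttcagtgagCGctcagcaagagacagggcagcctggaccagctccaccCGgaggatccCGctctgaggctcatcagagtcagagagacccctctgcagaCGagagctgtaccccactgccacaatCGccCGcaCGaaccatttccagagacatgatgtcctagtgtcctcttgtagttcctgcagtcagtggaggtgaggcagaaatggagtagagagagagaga
Gm17341 (chr10:91624029-91624328, plus strand): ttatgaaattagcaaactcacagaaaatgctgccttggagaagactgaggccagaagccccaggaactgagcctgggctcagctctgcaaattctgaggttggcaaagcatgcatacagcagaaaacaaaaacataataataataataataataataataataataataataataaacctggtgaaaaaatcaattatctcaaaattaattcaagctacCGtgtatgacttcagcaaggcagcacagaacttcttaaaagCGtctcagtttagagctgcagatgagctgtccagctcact
1810014B01Rik (chr10:86148219-86148518, plus strand): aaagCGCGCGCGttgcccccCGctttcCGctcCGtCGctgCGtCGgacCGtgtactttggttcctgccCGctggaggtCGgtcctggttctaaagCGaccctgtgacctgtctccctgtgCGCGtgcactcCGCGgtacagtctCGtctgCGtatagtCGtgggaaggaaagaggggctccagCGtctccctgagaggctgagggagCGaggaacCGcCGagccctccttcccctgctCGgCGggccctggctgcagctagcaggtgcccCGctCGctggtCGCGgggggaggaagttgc
Gm11998 (chr11:11457171-11457470, plus strand): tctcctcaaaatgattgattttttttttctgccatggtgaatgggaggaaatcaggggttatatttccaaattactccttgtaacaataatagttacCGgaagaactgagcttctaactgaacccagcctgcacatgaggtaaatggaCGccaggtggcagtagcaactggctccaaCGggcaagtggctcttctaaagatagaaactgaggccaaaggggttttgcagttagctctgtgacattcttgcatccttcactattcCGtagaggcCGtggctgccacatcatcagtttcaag
1700104A03Rik (chr9:54149059-54149358, minus strand): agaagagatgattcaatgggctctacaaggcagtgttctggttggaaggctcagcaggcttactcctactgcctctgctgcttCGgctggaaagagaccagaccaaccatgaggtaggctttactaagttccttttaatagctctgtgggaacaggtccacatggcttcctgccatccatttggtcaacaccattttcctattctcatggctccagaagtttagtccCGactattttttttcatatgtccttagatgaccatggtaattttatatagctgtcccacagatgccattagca
Gm9783 (chr19:5847828-5848127, plus strand): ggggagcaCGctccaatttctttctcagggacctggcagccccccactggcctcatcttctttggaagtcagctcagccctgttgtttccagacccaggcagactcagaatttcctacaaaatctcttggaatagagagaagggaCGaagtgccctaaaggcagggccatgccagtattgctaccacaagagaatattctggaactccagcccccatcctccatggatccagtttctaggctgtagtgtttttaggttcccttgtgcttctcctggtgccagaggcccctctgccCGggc

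The CpG-rich site at 1810014B01Rik had 31 CG dinucleotides, a GC content of 67.3% and an observed over expected CpG ratio of 0.91. The sequences of the rises had 5 CG dinucleotides at Gm11998 and 2 at 1700104A03Rik. Falls were not restricted to CpG-rich DNA, since the sites at Gm16684 and Gm17341 had 8 and 2 CG dinucleotides. The Gm17341 window holds a run of the repeated triplet taa, where reads can be hard to place. Gene symbols are those of GENCODE vM1, and a RefSeq symbol is added where it differs.

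More lncRNA promoter sites closed than opened in +HOT cells. A site was called lost or gained where the adjusted p was under 0.05 and the log2 fold change (+HOT over -HOT) was over 0.40 in size (edgeR quasi-likelihood test across all intervals with Benjamini-Hochberg adjustment). Of the 495 sites, 114 were lost (23.0%) and 44 were gained (8.89%), while 337 were not called. Over all 119603 tested intervals 14.2% were lost and 21.3% were gained, so the lncRNA promoters had a larger share of lost sites and a smaller share of gained sites than the whole table. The median log2 fold change of the lncRNA promoter sites was -0.18, with a range of -0.19 to -0.15 over the 4 pairs of a +HOT and a -HOT library, against a median of 0.00 over all intervals. The value was below 0 at 345 sites (69.7%), compared with 50.0% of all intervals. In these bulk libraries, fewer cells with an open site and less opening per cell cannot be told apart.

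**Figure D1:**
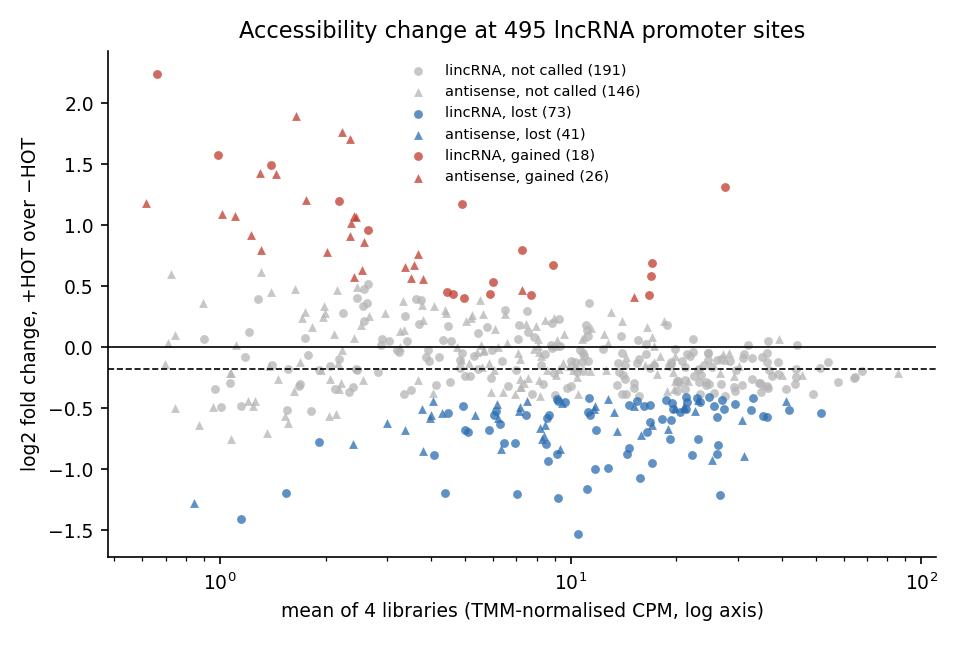
Log2 fold change (+HOT over -HOT) of each of the 495 lncRNA promoter sites against its mean over 4 libraries in TMM-normalised CPM (log axis). Circles are lincRNA sites and triangles antisense sites, with lost sites in blue, gained in red and the rest in grey. The dashed line is the median of -0.18, and gained sites sit mainly at the weak end.

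The number of gained sites depended on the test and on the libraries. DESeq2 called 98 sites lost and 25 gained, against 10.0% lost and 12.6% gained over all its intervals. All 25 gained sites and 96 of the 98 lost sites were also called by edgeR. Without -HOT replicate 1, edgeR called 99 sites lost and 29 gained. The lncRNA promoters took 0.590% and 0.586% of the interval reads in the +HOT libraries, against 0.663% and 0.658% in the -HOT libraries. The groups did not overlap, and the difference was -0.072 percentage points (exact permutation test, two-sided, p = 0.333, the smallest p that 2 against 2 libraries allow).

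The lncRNA promoters resembled protein-coding promoters more than distal sites in the direction of change. Of 15766 sites centred within 1000 bp of a protein-coding TSS, 24.6% were lost, 4.71% were gained and the median log2 fold change was -0.23. Of 93695 distal sites, 12.3% were lost, 24.2% were gained and the median was 0.071. Site strength differed between these classes. The median site had 7.80 CPM in +HOT and 8.84 CPM in -HOT at lncRNA promoters, 16.4 and 20.4 CPM at protein-coding promoters, and 4.15 and 3.70 CPM at distal sites. Weighted to the strength of the lncRNA promoters by deciles of mean CPM, the share of lost sites was 23.0% at lncRNA promoters, 26.1% at protein-coding promoters and 14.4% at distal sites. The weighted share of gained sites was 8.89% at lncRNA promoters, 8.15% at protein-coding promoters and 16.6% at distal sites. At like strength the gap to distal sites was smaller but present, while the gap in lost sites to protein-coding promoters was wider than in the unweighted shares. No test was made across sites, which are not replicates.

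**Figure D2:**
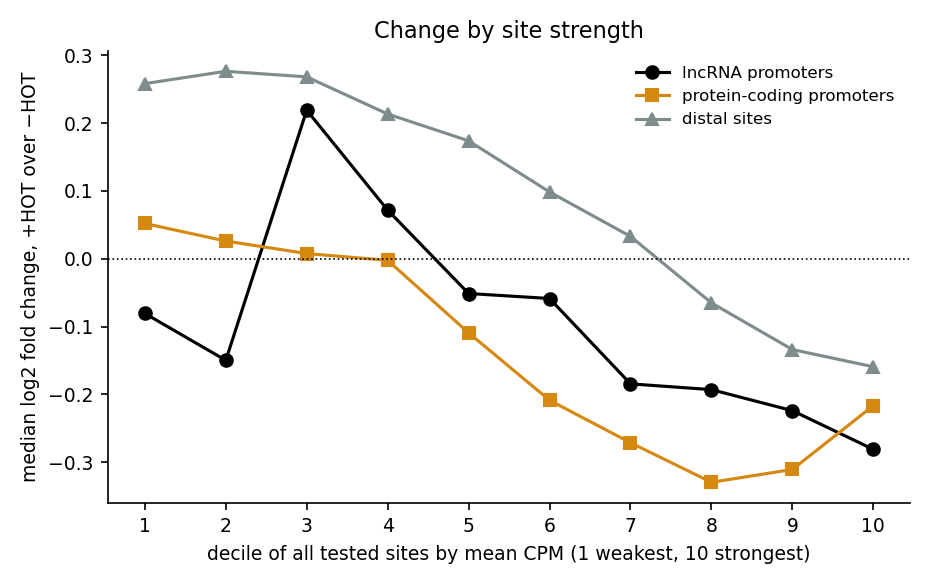
Median log2 fold change (+HOT over -HOT) in each decile of all tested sites by mean CPM, from the weakest to the strongest. The lncRNA promoters (21 to 108 sites per decile) lie above 0 only in deciles 3 and 4 and at -0.28 in the strongest decile, where distal sites lie at -0.16.

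Weak lncRNA promoters held most of the gained sites and few of the lost sites. The strongest decile of all intervals (over 20.2 CPM) had 108 lncRNA promoters, of which 31 were lost and 1 was gained. The 3 weakest deciles (up to 2.62 CPM) had 102 lncRNA promoters with 5 lost and 23 gained (22.5%). Distal sites had the same order, with 32.3% gained in the 3 weakest deciles and 1.81% in the strongest. In the strongest decile 28.7% of lncRNA promoters, 17.2% of protein-coding promoters and 14.7% of distal sites were lost. The order of lncRNA and protein-coding promoters there was the reverse of that in the weighted shares. The share lost at lncRNA promoters did not rise steadily with strength. It was 28.1% in decile 5, 13.9% in decile 6, 27.7% in decile 7 and 32.9% in both decile 8 and decile 9. Of the 44 gained sites, 33 had a mean under 5 CPM, compared with 17 of the 114 lost sites. Offsets trended on abundance, which remove such a relation, moved the median of the lncRNA promoters to -0.093 and the counts to 85 lost and 33 gained. In that fit 15.0% of all intervals were lost and 17.2% were gained. The 85 lost of 495 sites lay nearer to that share than the 114 lost sites lay to 14.2%.

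CpG-rich lncRNA promoters had a larger share of lost sites, and 1 of them was gained. A site was taken as CpG-rich with at least 50% GC and an observed over expected CpG ratio of at least 0.6 in 300 bp, and 119 of the 495 sites (24.0%) qualified, against 9.30% of all intervals and 56.0% of protein-coding promoter sites. Of the CpG-rich lncRNA promoters 37 were lost (31.1%) and 1 was gained, the site at Nphs1as (RefSeq Nphs1os, antisense to the podocyte gene Nphs1). Of the 376 CpG-poor sites 77 were lost (20.5%) and 43 were gained (11.4%). Gains were also fewer at CpG-rich sites of the other classes. At protein-coding promoters 24.7% of CpG-rich and 24.4% of CpG-poor sites were lost, while 0.66% and 9.87% were gained. At distal sites 26.0% of CpG-rich and 12.1% of CpG-poor sites were lost, while 6.15% and 24.5% were gained. The median log2 fold change was -0.28 at CpG-rich and -0.14 at CpG-poor lncRNA promoters, a difference of -0.14. This difference was -0.20 without +HOT replicate 1 and -0.090 without +HOT replicate 2. It shrank to -0.038 after a trend with GC content was removed and to -0.029 with abundance-trended offsets. The CpG-rich sites were also stronger, with a median of 17.6 CPM in +HOT and 21.8 CPM in -HOT against 6.37 and 7.23 CPM at CpG-poor sites. Among sites in the 3 strongest deciles, 32 of 90 CpG-rich and 48 of 167 CpG-poor sites were lost, with medians of -0.30 and -0.21. The parts of GC content and strength in the difference cannot be told apart here.

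LincRNA and antisense sites differed in strength as well as in their calls. Of 282 lincRNA sites 73 were lost (25.9%) and 18 gained (6.38%), while of 213 antisense sites 41 were lost (19.2%) and 26 gained (12.2%). The median log2 fold change was -0.20 at lincRNA and -0.13 at antisense sites. This difference of -0.073 had an SD of 0.043 over the 4 library pairs, and it ranged from -0.15 to -0.093 when each library was left out in turn. The antisense sites were weaker, at a median of 5.61 CPM in +HOT and 5.90 CPM in -HOT, against 10.6 and 12.98 CPM at lincRNA sites. They were also less often CpG-rich, at 13.1% against 32.3%. The larger share of gains in the antisense class was found in the 3 weakest deciles only, where 4 of 36 lincRNA and 19 of 66 antisense sites were gained. In deciles 4 to 7, 9 of 68 lincRNA and 6 of 68 antisense sites were gained. In the 3 strongest deciles, 56 of 178 lincRNA sites were lost and 5 gained, against 24 of 79 lost and 1 gained among antisense sites.

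**Figure D3:**
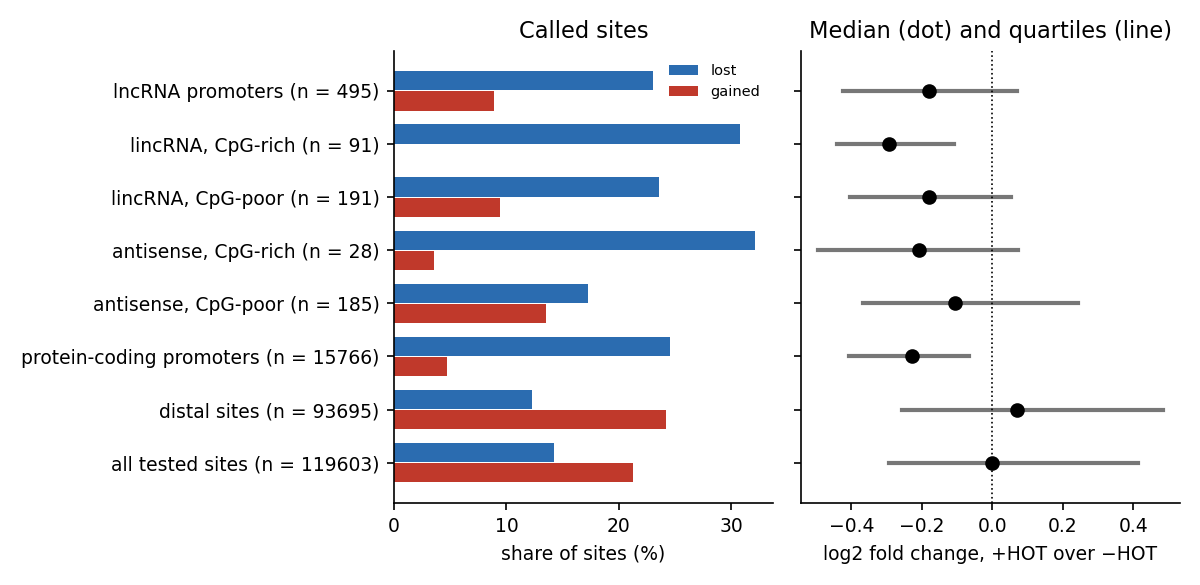
Left, share of sites called lost (blue) and gained (red) among the lncRNA promoters, their subclasses and the other classes of intervals. Right, median log2 fold change (+HOT over -HOT, dot) with the quartiles (line). Lost sites outnumber gained sites in every lncRNA subclass, from 32 against 25 at CpG-poor antisense sites to 28 against 0 at CpG-rich lincRNA sites.

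Gains were fewest close to the TSS. Of 101 sites centred within 100 bp of the lncRNA TSS, 22 were lost (21.8%) and 2 gained, and 39.6% were CpG-rich. At over 100 to 500 bp downstream 32 of 126 sites were lost and 5 gained, and at over 100 to 500 bp upstream 33 of 121 were lost and 15 gained. At over 500 to 1000 bp downstream 16 of 87 sites were lost and 17 gained (19.5%, near the 21.3% over all intervals), and 9.20% of the 87 were CpG-rich. At over 500 to 1000 bp upstream 11 of 60 sites were lost and 5 gained. The median log2 fold change was -0.21 within 100 bp, -0.26 at over 100 to 500 bp downstream and -0.05 at over 500 to 1000 bp downstream. Upstream it was -0.18 at over 100 to 500 bp and -0.14 at over 500 to 1000 bp. Strength differed too, with -HOT medians of 9.98 CPM within 100 bp, 14.1 CPM at over 100 to 500 bp downstream and 6.87 CPM beyond. Just inside the limit of the rule, the 147 sites at over 500 to 1000 bp had 27 lost (18.4%), 22 gained (15.0%) and a median of -0.08. Just outside it, the 107 sites at over 1000 to 1500 bp had 24 lost (22.4%), 23 gained (21.5%) and a median of -0.06. The share lost just outside was near the 23.0% of all lncRNA promoters and above the 14.2% of all intervals.

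Sites outside protein-coding genes were lost more often than those inside. Of 311 lncRNA promoters outside such genes 84 were lost (27.01%) and 24 gained (7.72%). Of 184 inside a protein-coding gene 30 were lost (16.3%) and 20 gained (10.9%). The sites inside genes were weaker (median 5.61 CPM in +HOT and 5.78 CPM in -HOT, against 9.73 and 11.2 CPM outside) and less often CpG-rich (7.61% against 33.8%). By distance to the nearest protein-coding TSS, the share of lost sites was 20.8% at 3000 to 5000 bp, 24.2% at 5000 to 10000 bp, 24.3% at 10000 to 30000 bp, 21.8% at 30000 to 100000 bp and 22.0% beyond. The share of gained sites in the same order was 3.77%, 11.1%, 10.7%, 9.77% and 0 of 41 sites.

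The change at a lncRNA promoter did not follow that of the nearest protein-coding promoter. Such a neighbouring promoter site was present for 391 of the lncRNA promoters, and Pearson's r between the log2 fold changes was 0.01 and Spearman's rho 0.06 across these sites, which share the same 4 libraries. The neighbouring promoter was lost for 27 of 91 lost, 67 of 268 uncalled and 15 of 32 gained lncRNA promoters. For 156 sites inside a single host gene with a promoter site, 149 of them on the opposite strand, r between the lncRNA promoter and the host promoter was 0.03 and rho 0.02. The host promoter was lost for 7 of 26 lost and 7 of 16 gained lncRNA promoters. The 25 lncRNA genes with 2 sites gave a further comparison within 1 gene. The sites had the same sign of change at 17 of these genes. Both were lost at D230017M19Rik, BC042782 and Gm17341, both were gained at Gm12 (RefSeq Lrrc3c), and at 0 genes was 1 site lost and the other gained.

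The 8 named falls were at lincRNA genes. They are the 8 called sites with the largest log2 decrease among those whose groups do not overlap and whose mean is at least 1 CPM. The antisense site at Gm11713 was also lost, with a log2 fold change of -1.28, but did not meet these limits. It is given after its values were seen. At Gm16684 (chr17:32946118-32947208, 426 bp upstream of the TSS) the site had 5.90 and 4.83 CPM in +HOT, against 15.7 and 15.6 CPM in -HOT. The log2 fold change was -1.53 (SE 0.13, adjusted p = 9.29e-20). At 1810014B01Rik (chr10:86147742-86148995, a transcribed pseudogene in RefSeq) the CpG-rich site, centred 22 bp downstream of the TSS, had 5.23 and 5.78 CPM in +HOT, against 12.4 and 13.4 CPM in -HOT, a log2 fold change of -1.24 (SE 0.13, adjusted p = 6.35e-14). The replicates of each condition lay close together and far from the other condition at these sites.

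The 2 sites of Gm17341 on chromosome 10 lie on either side of its TSS, 559565 and 560987 bp from the nearest protein-coding TSS, that of Nedd1. Both centres also lie inside Rmst, another annotated lncRNA gene. The upstream site (chr10:91623994-91624362) had 0.456 and 0.813 CPM in +HOT, against 1.47 and 1.84 CPM in -HOT, a log2 fold change of -1.41. The call was lost without +HOT replicate 1 (adjusted p = 0.051, edgeR). The downstream site (chr10:91625049-91626151) had 4.49 and 4.02 CPM in +HOT, against 10.4 and 9.31 CPM in -HOT, a log2 fold change of -1.21. The stronger of the 2 D230017M19Rik sites (chr1:72282787-72284973) had 17.6 and 14.4 CPM in +HOT, against 35.8 and 38.5 CPM in -HOT, and was the strongest of the 8 falls. Its log2 fold change was -1.21, and that of the other site was -0.53.

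The remaining 3 falls were at BB218582, Gm17489 and Gm16625. BB218582 (chr2:106490034-106490967, centred 9 bp upstream of the TSS) had 2.32 and 3.07 CPM in +HOT, against 5.89 and 6.29 CPM in -HOT. Gm17489 (chr2:52721118-52722143), on the opposite strand within Fmnl2, a gene of actin assembly, had 7.58 and 6.10 CPM in +HOT, against 15.5 and 15.4 CPM in -HOT. Gm16625 (chr8:25531765-25532379) had 1.16 and 0.677 CPM in +HOT, against 1.81 and 2.54 CPM in -HOT. Their log2 fold changes were -1.19, -1.16 and -1.20.

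The largest rises were at weak sites. The site with the highest log2 fold change, 2.24 at the lincRNA gene Gm4221, had 0.983 and 1.22 CPM in +HOT, against 0.250 and 0.201 CPM in -HOT, and was left out of the 8 named rises by the limit of 1 CPM. It is given after its values were seen. Among the 8 named rises, 6 were at antisense genes. Gm11998 (chr11:11457075-11457566, 104 bp upstream of the TSS) had 2.35 and 2.84 CPM in +HOT, against 0.472 and 0.937 CPM in -HOT, a log2 fold change of 1.90 (SE 0.31, adjusted p = 3.13e-07). 1700104A03Rik (RefSeq Gldnos; chr9:54148980-54149437), on the opposite strand within Gldn, which encodes a protein of the nodes of Ranvier, had 2.95 and 3.93 CPM in +HOT, against 0.972 and 1.04 CPM in -HOT, a log2 fold change of 1.76 (SE 0.27, adjusted p = 3.10e-08). 4930480G23Rik (chr4:19912444-19912898) had 2.81 and 4.38 CPM in +HOT, against 0.889 and 1.31 CPM in -HOT, a log2 fold change of 1.71. These sites were near the lower end of what was counted in -HOT cells.

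Gm13116 (chr4:153467465-153467747), on the opposite strand within Trp73, a gene of the p53 family, had 2.28 and 1.94 CPM in +HOT, against 0.833 and 0.736 CPM in -HOT. Gm15356 (chr8:68966797-68967137), on the opposite strand within March1, a ubiquitin ligase gene, had 2.77 and 2.12 CPM in +HOT, against 0.972 and 1.17 CPM in -HOT. Their log2 fold changes were 1.42 and 1.21, and neither lost its call under any alternative fit. The +HOT replicates lay farther apart at the next 2 genes. Gm17286 (chr5:37432027-37432505), inside Jakmip1, had 1.30 and 2.84 CPM in +HOT, against 0.667 and 0.770 CPM in -HOT, and lost its call without +HOT replicate 2 (adjusted p = 0.105, edgeR). Gm16213 (chr3:152583378-152583639) had 2.42 and 1.35 CPM in +HOT, against 0.722 and 0.703 CPM in -HOT, and lost its call without +HOT replicate 1 (adjusted p = 0.096, edgeR).

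The strongest rise was at Speer7-ps1 (chr5:15183769-15187668, Speer4cos, a transcribed pseudogene, in RefSeq), with 31.5 and 47.1 CPM in +HOT against 12.2 and 19.4 CPM in -HOT and a log2 fold change of 1.32. The replicates differed by far more here than at other strong sites. The Speer genes are a family of similar copies, so that reads may have been placed at another copy and the value is uncertain.

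**Figure D4:**
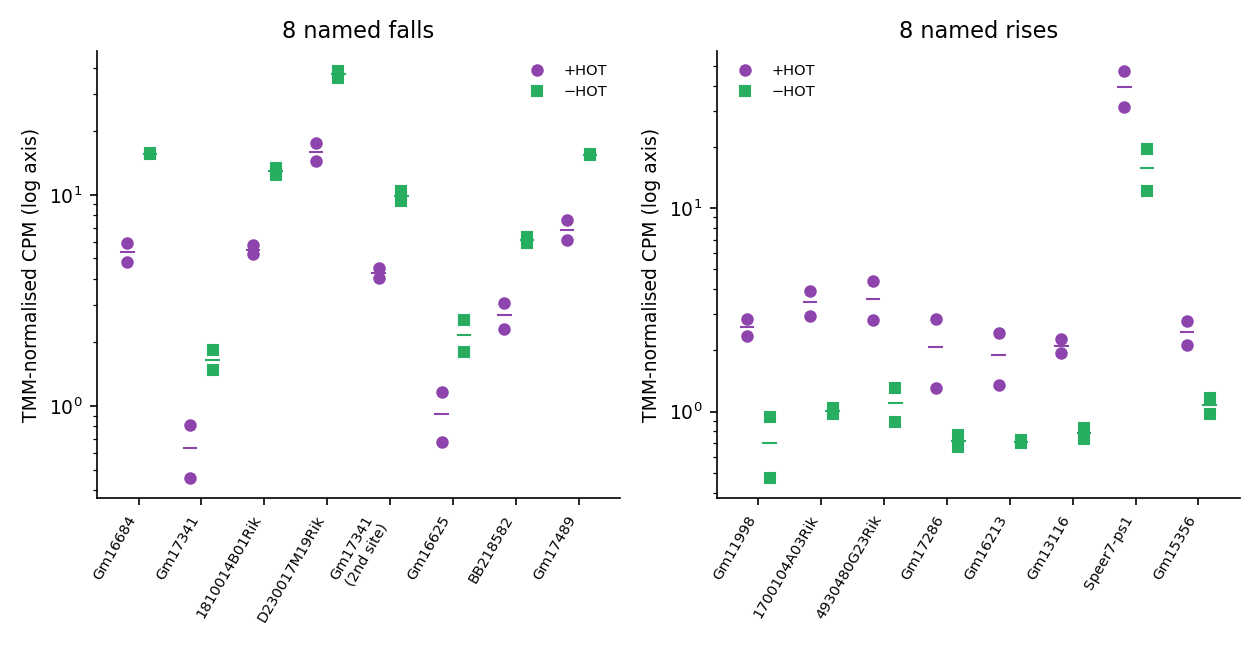
TMM-normalised CPM (log axis) of the 8 named falls (left) and the 8 named rises (right), with +HOT libraries as circles left of -HOT libraries as squares and the mean of each group as a bar. The groups do not overlap at these sites, as the naming rule required, and all rises but Speer7-ps1 stay under 5 CPM.

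Most sites of well-studied lncRNA genes were not called, as was the case at 337 of all 495 lncRNA promoters. Of 79 genes in a list of imprinted, small-RNA host, nuclear, HOX, growth and developmental lncRNAs, 22 had 27 lncRNA promoter sites, of which 5 were lost and 1 was gained. Of the others, 17 had a site too close to a protein-coding TSS and 9 had none within 1000 bp. These 9 include Rmst, although both Gm17341 sites lie inside that gene. Another 7, among them H19, Malat1 and Neat1, were processed-transcript genes that were not among those taken as antisense. The remaining 24 were not matched to an annotated name. These counts stand beside 14.2% lost and 21.3% gained over all intervals, and 23.0% and 8.89% over all lncRNA promoters.

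Among imprinted genes, Airn, which silences Igf2r on the paternal chromosome, had 1 lost site of 2. The upstream site (chr17:12932849-12934697) had 16.8 and 15.0 CPM in +HOT, against 22.2 and 20.9 CPM in -HOT, a log2 fold change of -0.43 (SE 0.10, adjusted p = 4e-04, edgeR). This is just past the threshold, and with library totals as scaling it was -0.36 and not called. It also lost its call with abundance-trended offsets (log2 fold change -0.24), without +HOT replicate 2 (-0.36) or without -HOT replicate 1 (-0.39). Meg3, the maternally expressed lncRNA of the Dlk1-Dio3 domain, had a CpG-rich site at its TSS with 21.7 and 23.8 CPM in +HOT against 25.2 and 25.1 CPM in -HOT, and neither of its 2 sites was called.

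The snoRNA hosts, genes whose introns carry snoRNAs, had strong promoter sites. Snhg4 (chr18:35712615-35714567) was lost, with 17.3 and 16.3 CPM in +HOT against 24.6 and 24.0 CPM in -HOT and a log2 fold change of -0.53. With abundance-trended offsets this was -0.33 and not called. Snhg5, Snhg7, Snhg12, Gm11974 (RefSeq Snhg15) and 9430008C03Rik (RefSeq Snhg17) were not called, with log2 fold changes of -0.10, -0.30, -0.18, -0.36 and -0.29. Gm11974 passed the threshold without +HOT replicate 1 or without -HOT replicate 2, with -0.43 in each. Snhg7 had 39.8 and 38.2 CPM in +HOT, against 47.7 and 48.4 CPM in -HOT. The +HOT values lay below the -HOT values at each of these 6 sites, by a narrow margin at Snhg5. With abundance-trended offsets the fold changes of Snhg5 and Snhg12 turned positive. Among all 495 lncRNA promoters the groups did not overlap, in either direction, at 356. The share without overlap over all intervals is not given here, so no excess can be read from this count. The log2 fold change was below 0 at 69.7% of the 495 sites, compared with 50.0% of all intervals. Across all 11 lncRNA promoters whose gene holds an annotated snoRNA on the same strand, 1 was lost, 0 were gained and the median log2 fold change was -0.28, against -0.18 over all lncRNA promoters.

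Of 23 lncRNA promoters whose gene holds an annotated microRNA, 5 were lost (21.7%) and 2 were gained (8.70%), close to the 23.0% and 8.89% of all lncRNA promoters. D230004N17Rik (RefSeq Mir100hg, a microRNA cluster host), at chr9:41282543-41284096, had 21.1 and 21.0 CPM in +HOT, against 31.8 and 30.6 CPM in -HOT, a log2 fold change of -0.57 (SE 0.10). With abundance-trended offsets this was -0.36 and not called. A930011O12Rik (RefSeq Mir124a-1hg, host of a neuronal microRNA) had 3.83 and 5.24 CPM in +HOT at its stronger site, against 7.08 and 7.23 CPM in -HOT, a log2 fold change of -0.68. Its other site, with a log2 fold change of -0.15, was not called. Dleu2, whose 2 CpG-rich sites had log2 fold changes of -0.22 and -0.17, and AI854517 (RefSeq Mir9-3hg), with -0.18 and -0.02, had no called site. A330023F24Rik, which holds Mir29b-2 and Mir29c and is named here after its values were seen, was gained, with 7.09 and 7.22 CPM in +HOT against 5.81 and 3.98 CPM in -HOT and a log2 fold change of 0.53.

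Sites at growth and p53 genes were not called. Gm16197 (RefSeq Trp53cor1, a p53 target beside Cdkn1a) had 29.1 and 26.3 CPM in +HOT, against 31.6 and 31.4 CPM in -HOT. Pvt1, downstream of Myc, had 24.7 and 19.8 CPM in +HOT, against 28.2 and 26.8 CPM in -HOT, a log2 fold change of -0.30. 1700020I14Rik (RefSeq Oip5os1, a broadly expressed lncRNA) had 35.5 and 32.5 CPM in +HOT, against 35.8 and 36.4 CPM in -HOT. The +HOT values lay below the -HOT values at all 3 sites, by less than the replicate spread at 1700020I14Rik. A fall was common, since 69.7% of all lncRNA promoters had a log2 fold change below 0. With abundance-trended offsets the fold changes of Gm16197 and 1700020I14Rik turned positive. Pvt1 passed the threshold only without +HOT replicate 1 (log2 fold change -0.47).

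At developmental genes both directions were found. Sox2ot, which overlaps the stem cell gene Sox2, was gained at chr3:34538156-34538443, with 2.81 and 3.25 CPM in +HOT against 1.08 and 1.57 CPM in -HOT and a log2 fold change of 1.20 (SE 0.26, adjusted p = 1e-04, edgeR). Its centre was 873 bp downstream of a Sox2ot TSS, and the TSS of Mir1897 lay within 1000 bp. Dlx1as, antisense to the homeobox gene Dlx1, was lost, with 1.33 and 1.49 CPM in +HOT against 2.11 and 2.74 CPM in -HOT and a log2 fold change of -0.78 (SE 0.27, adjusted p = 0.015, edgeR). This weak site was not called by DESeq2 (adjusted p = 0.109), nor without +HOT replicate 1 (adjusted p = 0.094, edgeR) or -HOT replicate 2 (adjusted p = 0.186, edgeR). Dlx6os1, which regulates the neighbouring Dlx genes, had 19.8 and 19.3 CPM in +HOT, against 23.4 and 23.9 CPM in -HOT, and was not called. Vax2os1, Gm16258 (RefSeq Hotair, of the HoxC cluster) and Miat, a nuclear lncRNA, had overlapping groups, with log2 fold changes of 0.05, -0.15 and -0.20.

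The 5 strongest lncRNA promoters in -HOT cells were not called. Gm9783 (chr19:5846624-5849331, antisense class) had 82.1 and 77.1 CPM in +HOT, against 92.8 and 91.2 CPM in -HOT. Gm16908 (RefSeq Carmn, a smooth muscle lncRNA beside Mir143) had 67.0 and 59.1 CPM in +HOT, against 72.0 and 72.4 CPM in -HOT. Gm14005 (RefSeq Morrbid, known for myeloid cell survival) had 62.5 and 56.2 CPM in +HOT, against 68.7 and 71.8 CPM in -HOT. At these sites the groups did not overlap, and the falls were small. The other two, 4833417C18Rik and BC029722, had log2 fold changes of -0.25 and -0.29, so the 5 lay between -0.29 and -0.19. BC029722 is a protein-coding gene in RefSeq, as are the genes of 30 of the 305 lncRNA promoters with a RefSeq match. Without these 30 sites, 105 were lost and 41 gained.

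Sequence letters were counted on both strands of the 300 bp around each centre. The GC box (GGGCGG, which overlaps CpG-rich DNA) was in 26.3% of lncRNA promoters, 46.5% of protein-coding promoters and 11.4% of all autosomal intervals. The TATA box (TATAAA) was in 9.90% of lncRNA promoters and 18.5% of all intervals, and the AP-1 letters (TGANTCA) in 16.2% and 24.7%. The other motifs were nearer to their share of all intervals. CCAAT was in 30.5% against 32.9%, the E-box (CACGTG) in 6.46% against 4.25%, the TEAD letters (ACATTCC) in 7.07% against 8.07%, the ETS letters (CCGGAAGT) in 0.81% against 0.69% and the NRF1 letters (GCGC and TGCGC with 1 free base between) in 0.61% against 0.63%. Of 130 sites with a GC box 35 were lost (26.9%) and 3 gained (2.31%), beside 23.0% and 8.89% over all lncRNA promoters. Over all intervals 14.2% were lost and 21.3% gained. The median log2 fold change with a GC box was -0.23, against -0.15 without it. At protein-coding promoters with a GC box 24.4% were lost and 1.58% gained, against 24.6% and 4.71% at all of them. The lncRNA promoters with a GC box were stronger (median 11.9 CPM in +HOT, against 7.80 CPM at all lncRNA promoters), and 56.9% were CpG-rich.

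LncRNA promoters with the letters of CTCF, a factor that binds at insulators and chromatin loop ends, had a median change above 0. The letters CCA, AG and GGC with 2 free bases in each gap were in 26 lncRNA promoters (5.25%, against 6.52% of all autosomal intervals), of which 4 also had a GC box. Of these 26 sites 1 was lost (3.85%) and 7 were gained (26.9%), beside 14.2% lost and 21.3% gained over all intervals and 23.0% and 8.89% over all lncRNA promoters. Their median log2 fold change was 0.20 (0.13 to 0.29 over the library pairs), against -0.19 at the other sites. In the other classes the median with these letters was 0.40 at 6329 distal sites, 42.4% of them gained, against 0.071 at all distal sites. It was -0.07 at 592 protein-coding promoters, 15.7% of them gained, against -0.23 at all protein-coding promoters. Under the alternative fits the median at the 26 lncRNA promoters stayed between 0.12 and 0.27, while the number gained ranged from 2 (DESeq2) to 8. It was 3 without +HOT replicate 2 or without -HOT replicate 1. These sites were weak, with a median of 5.00 CPM in +HOT and 3.96 CPM in -HOT. The matches at the 7 gained sites and at the 1 lost site are shown in mm9, read on the strand of the match, with the matched letters in capitals and 4 flanking bases on each side. Each name is followed by the interval that holds the match.
Gm14157 (chr2:151692330-151692658): cctgCCAGCAGAGGGCagtc
7330404K18Rik (chr14:21218161-21218493): acccCCACCAGGTGGCtcca
Gm16577 (chr10:10931760-10932083): cctgCCACAAGTGGGCacca
Gm12 (chr11:98458610-98459078): ctgaCCACCAGGAGGCgctg
Gm11657 (chr11:107855641-107856268): aagaCCACAAGAGGGCagta
Lactbl1 (chr4:136177023-136178019): atcaCCACTAGATGGCagaa
Gm16065 (chr5:120140884-120141792): gcaaCCAGCAGATGGCagca
1700066J03Rik (chr13:58249609-58251330): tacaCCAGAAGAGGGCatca

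The gained sites with these letters had log2 fold changes of 1.07, 0.91, 0.78, 0.66, 0.56, 0.45 and 0.43 in the order shown, and the lost site at 1700066J03Rik had -0.47. A match is a description of letters, and binding was not measured here.

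**Figure D5:**
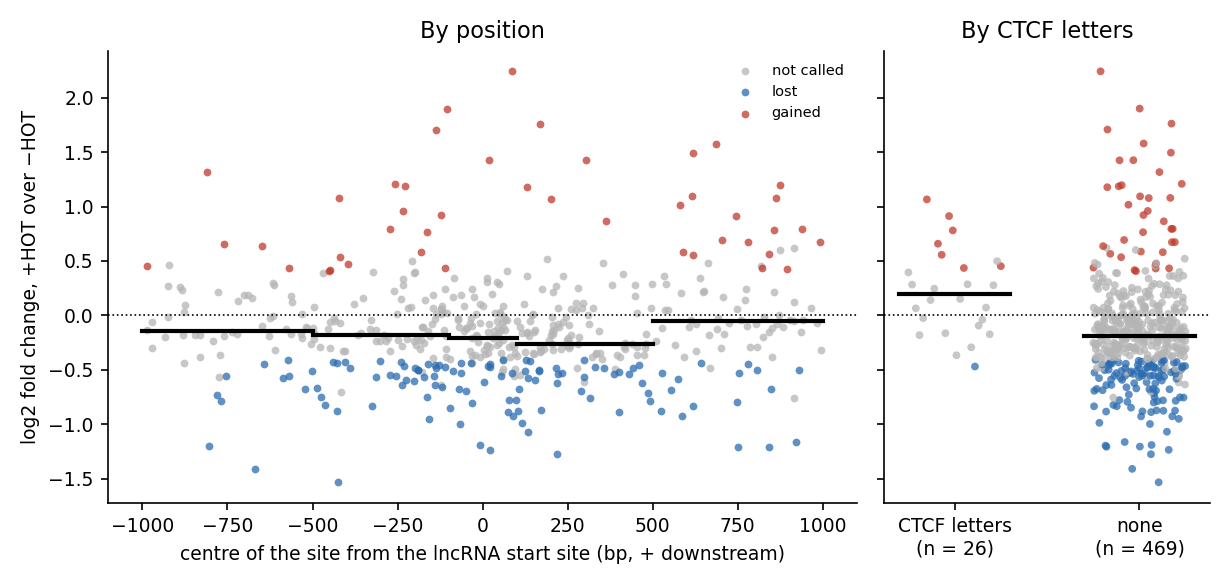
Left, log2 fold change (+HOT over -HOT) of each lncRNA promoter site against the distance of its centre from the lncRNA TSS in bp, with the median of each distance class as a bar. Right, the same values for the 26 sites with CTCF letters (median 0.20) and the 469 sites without (median -0.19). Lost sites are blue, gained sites red.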

How the data were processed

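ATAC-seq was measured in 2 +HOT and 2 -HOT libraries. The authors trimmed reads (Trim_Galore), mapped them to mm9 (BWA), removed duplicates and blacklisted reads (Picard, SAMtools), called narrow peaks (MACS2) and deposited raw counts per joined interval, so reads outside peaks are not counted. The sources used here do not give the tool versions or how peaks were joined and counted. The deposited scaled counts, a signal column equal to counts times 1 constant per library, and the authors' DESeq2 columns (fold changes and p-values), gained and lost lists and footprint tables were not used for any test. Table starts were raised by 1, because 27047 of 27047 called sites in the authors' lists start 1 base later. Removing duplicates limits PCR effects but also the highest counts.

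The deposited counts were tested with edgeR 4.0.16 (R 4.3.3, filterByExpr, TMM, quasi-likelihood) over all intervals, and with DESeq2 1.42.0 as an alternative. The test was checked on simulated data. CPM values are TMM-normalised. Depths were 21356440 to 37151163 reads per library. TSSs are those of GENCODE vM1, and RefSeq names (GRCm38.p6) matched 305 of the 495 sites. The members and lists were chosen with earlier results of these data known. Named sites were those of the well-studied list, the 8 largest falls and 8 largest rises (called, groups apart, mean at least 1 CPM) and the 5 strongest in -HOT. Alternatives covered scaling, abundance and GC trends, the filter, the replicate block, each library left out, the window around the TSS and the distance from protein-coding TSSs, and 3 member rules added after seeing the data.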

Additional observations from a re-analysis of the deposited data

How the results depend on the processing

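The number of lost lncRNA promoter sites stayed within 1.5 times of 114 in every alternative fit. The lowest was 85 with abundance-trended offsets, where 15.0% of all intervals were lost. The highest was 146 with TMM factors from distal sites, where 18.9% of all intervals were lost. The number lost was 73 when only the lincRNA gene type was taken. The number gained was 44 in the edgeR fit with all libraries and 25 with DESeq2, 22 with the centre within 500 bp of the TSS, 18 with the lincRNA gene type alone, 70 with lincRNA transcripts of processed-transcript genes also taken, and 29 to 38 when each library was left out. The median log2 fold change of -0.18 became -0.11 with library totals, -0.26 with TMM factors from distal sites, -0.093 with abundance-trended offsets, -0.13 with the GC trend removed, -0.22 within 500 bp, -0.20 for lincRNA genes alone and -0.14 for the wider rule. Library totals and TMM factors from distal sites moved the median of all intervals to 0.071 and -0.076. The lncRNA promoters stayed 0.18 below it in each, since such a scaling shifts both medians alike. The median of the lncRNA promoters minus that of all intervals was -0.096 with abundance-trended offsets. It was -0.12 with the GC trend removed, against -0.18 in the edgeR fit with all libraries. The CpG-rich minus CpG-poor difference was -0.029 with abundance-trended offsets, -0.038 with the GC trend removed and -0.20 to -0.090 with each library left out. The lincRNA minus antisense difference was -0.15 to -0.093 with each library left out, -0.17 with 1 TSS per gene and -0.13 with the wider rule. The wider rule and the lincRNA gene type alone were chosen after seeing the data.

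Of 564 values of the 47 named sites under the alternative fits, 525 kept their direction and call, 12 lost a call, 4 gained a call and 23 changed sign, all at sites that were not called. With abundance-trended offsets the sign changed at Snhg12 (0.022), Gm16197 (0.024), Dleu2 (0.030), Meg3 (0.060), Snhg5 (0.11), 1700020I14Rik (0.12), Vax2os1 (-0.044) and the downstream Airn site (-0.13). With the GC trend removed it changed at Miat (0.0066), the AI854517 sites (0.044 and 0.15), Dleu2 (0.072) and the weaker A930011O12Rik site (0.061). It changed with library totals at AI854517 (0.045), and with TMM factors from distal sites at Vax2os1 (-0.024) and Airn (-0.0046). With each library left out the values ranged from -0.70 to 0.30 at Gm16258, -0.36 to 0.22 at AI854517, -0.18 to 0.27 at Vax2os1 and -0.32 to 0.42 at the downstream Airn site. The cause was not tested.

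Replicate numbers did not pair the libraries (correlation of same-numbered deviations 0.041). With the replicate block, edgeR called 113 sites lost and 44 gained. The median was then -0.18, a CpG difference of -0.14 and a lincRNA minus antisense difference of -0.072. Depth limits the weak sites, the lowest of which had 6 reads in a library, and removing the filter changed no count.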
